A study of Populus ussuriensis with 20 samples.

Results

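The first hours of phosphate shortage were followed in cuttings of Populus ussuriensis, a forest tree, at the stem base where new roots form. The experiment described here comprises 8 of the 20 RNA-seq libraries of a time series. They are the libraries taken 2 h and 4 h after cuttings with root primordia were moved to liquid Woody Plant Medium, a culture medium for woody plants. There were 4 libraries at 10 µM KH2PO4, the low-phosphate medium, and 4 at 200 µM KH2PO4, the comparison medium, with 2 libraries at each level and time. All groups shared the same history: new cuttings from 3-week-old plants, 5 days on solid medium with 20 g/L sucrose in a room with 16 h of light, transfer to the liquid medium, and total RNA from the cut basal end, which holds the primordia and the tissue around them. The labels give a library number in each group but not whether the libraries came from separate cultures or plants, so p-values measure the spread between these libraries, which may be technical. The 8 libraries are all those labelled with these levels and times, and no measured value is part of that definition.

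As background, plants take up phosphorus as inorganic phosphate through transporters in the root epidermis and cortex. When the supply inside the cell falls, SPX-domain proteins release transcription factors of the PHR family, which switch on genes for uptake, for acid phosphatases that free phosphate from organic compounds, and for lipids that replace phospholipids in membranes. Adventitious roots are roots that arise from stem tissue, and in poplar cuttings the primordia form near the vascular cambium. The title of the series ties low phosphorus to the formation of such roots, and the samples at 2 h and 4 h ask which transcripts at the stem base had already shifted soon after transfer.

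Transcript levels are given as FPKM, that is fragments scaled by gene length and by the total fragments of the library. Of 34699 genes in the deposited table, 24934 reached 1 FPKM in at least 2 of the 20 libraries and were tested on the scale log2(FPKM + 1). Differences are 10 minus 200 µM KH2PO4 on this log2 scale, which understates the change of weakly expressed genes. The deposited table names genes by identifier only, and no annotation was used here. Genes are therefore given by identifier, without function or position, and neither the genes of the phosphate starvation pathway nor the tissue markers could be picked out. Since whole stem bases were sampled, a lower value can stand for fewer cells of a type or for less RNA per cell, and these cannot be told apart.

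The libraries were even in depth but not in composition. Totals worked out from the FPKM values ran from 14380324 to 15569419 fragments in the 8 libraries, and the median tested gene was covered by 249 fragments. In simulated data 10 of 20 such totals came back exactly, so they are estimates. The leading principal component of the 8 libraries (29.3% of variance) split those at 2 h by replicate number and not by phosphate. Both libraries numbered 1 scored high, 23.7 at 10 µM and 29.3 at 200 µM. Both numbered 2 scored low, -22.5 at 10 µM and -26.6 at 200 µM. At 4 h the scores lay between -8.81 and 6.93. The second component (22.5%) separated the times, with all libraries at 2 h between 11.1 and 20.2 and all libraries at 4 h between -18.1 and -14.8. On neither of these did the libraries at 10 µM stand on one side of those at 200 µM. On the third component (12.6%) both libraries at 10 µM lay above both at 200 µM within each time. At 2 h they scored 0.46 and 5.51 against -4.37 and -1.13, and at 4 h 9.41 and 16.9 against -27.6 and 0.82. Over all 8 libraries the levels overlapped slightly on it, and replicate 1 at 200 µM and 4 h lay far from the rest. Of the variation among the 8 libraries summed over genes, time accounted for 22.2% and phosphate for 10.8%, each on 1 degree of freedom. The spread between replicates accounted for 14.4% per degree of freedom, more than phosphate did. Replicates differed with an SD of 0.357 (10 µM) and 0.395 (200 µM) on the log2 scale at 2 h, and of 0.249 and 0.299 at 4 h.

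**Figure D1:**
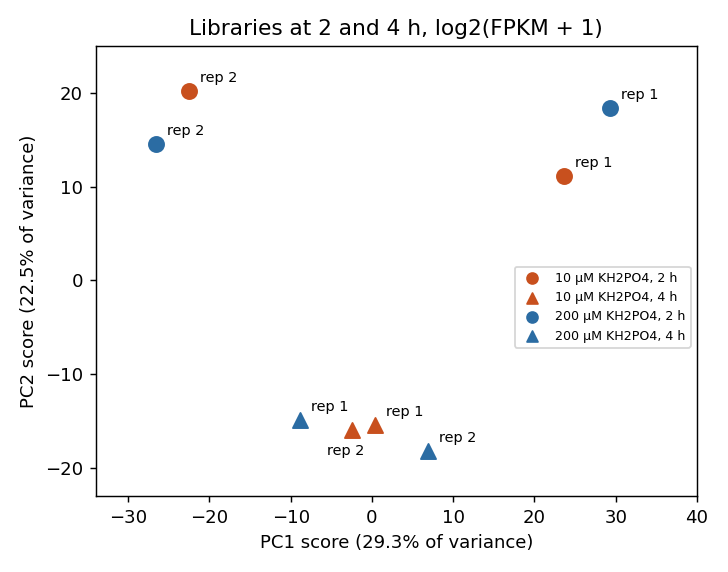
Scores of the 8 libraries on the first and second principal components of log2(FPKM + 1), with colour for the phosphate level, shape for the time and the replicate number beside each point. The libraries at 2 h lie at both ends of the first axis by replicate number (23.7 and 29.3 against -22.5 and -26.6), and the second axis separates 2 h from 4 h.

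Over 2 h and 4 h together, the main fit called no transcript higher or lower at 10 µM than at 200 µM. A replicate block, which was not taken as a pairing, gave 1 call and is described further below. In limma with time as a block and no replicate block, 0 of 24934 genes (0%) had a Benjamini-Hochberg adjusted p under 0.05, and the smallest adjusted p was 0.800. An unadjusted p under 0.05 was reached by 811 genes (3.25%), of which 324 were higher and 487 lower at 10 µM. With limma's voom on whole fragments worked out from the FPKM values, the counts were 0 and 741. Evenly spread p-values would put a share of 0.05 under 0.05. The limma share of 3.25% lay below that, as did those at 2 h (1.75%), at 4 h (3.31%) and for the change between them (1.84%). These counts thus hold no excess of small p-values. Without replicate 2 at 200 µM and 2 h, limma still called 0 genes, and 1240 reached an unadjusted p under 0.05. The differences were small as well as uncalled. With a median difference of -0.00018 over all tested genes, 90% of genes lay between -0.23 and 0.20. A difference beyond 1 was estimated for 3 genes upward and 4 genes downward. For 24481 genes (98.2%) the 95% confidence interval of the difference lay within 1 on either side of 0. Among the 16555 genes with a mean of at least 5 FPKM, where the added 1 matters less, this held for 16372 (98.9%). These intervals are for single genes and are not adjusted for their number. Their median half-width was 0.26.

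The estimated differences were larger in weakly expressed genes, as were their errors. When tested genes were ranked by their mean over the 8 libraries and parted into 4 equal classes, the lowest class reached up to 3.42 FPKM. In it, the median size of the difference was 0.10 and the median half-width of its interval 0.34. In the highest class, from 20.6 FPKM upward, these were 0.05 and 0.21. The share with an unadjusted limma p under 0.05 was 4.04% in the lowest class and 2.28% in the highest.

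Detection at one phosphate level alone was limited to a few fragments. Over all 34699 genes of the table, 4 had fragments in all 4 libraries at 10 µM and none in the 4 at 200 µM, and 6 had the reverse. None of these 10 held more than 12 fragments summed over the 4 libraries.

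Complete separation of the levels was rare. In 185 of 24934 genes (0.742%) all 4 libraries at 10 µM lay above all 4 at 200 µM, and in 236 (0.946%) they lay below. At 2 h alone, both libraries at 10 µM lay above both at 200 µM in 2465 genes (9.89%) and below them in 2400 (9.63%). At 4 h this held for 4117 (16.5%) and 4476 (18%). With only 2 libraries against 2, full separation is frequent even when the labels carry no difference. The shares were not tested against that, nor was their change from 2 h to 4 h. Separation in the same direction at both times was found upward in 442 of 24934 genes and downward in 495. Genes that changed sides numbered 363 (above at 2 h, below at 4 h) and 370 (the reverse).

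**Figure D2:**
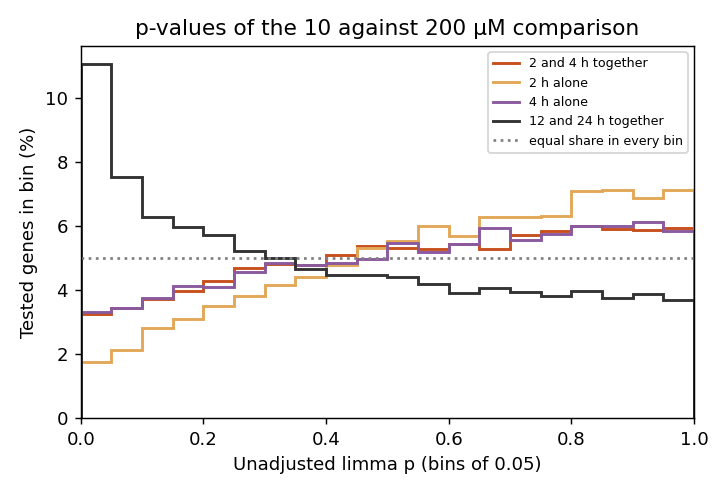
Share of the 24934 tested genes (vertical axis, %) by unadjusted limma p in bins of 0.05 (horizontal axis), for 10 against 200 µM at 2 h and 4 h together, at each of these times alone, and at 12 h and 24 h together. The first bin holds 3.25% of genes for 2 h and 4 h together, 1.75% at 2 h, 3.31% at 4 h and 11.1% at 12 h and 24 h, against an equal share marked by the dotted line.

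The gene with the smallest p over both times was Potri.013G070350, which was higher at 10 µM. Its libraries at 10 µM measured 6.56 and 7.8 FPKM at 2 h and 6.51 and 5.58 FPKM at 4 h. At 200 µM it measured 2.97 and 2.06 FPKM at 2 h and 3.23 and 2.8 FPKM at 4 h. The lowest library at 10 µM thus lay above the highest at 200 µM at either time. The difference was 1.02 ± 0.14 (log2, SE), a 2.03-fold difference on this scale, with an adjusted limma p of 0.800. The gene is short, 321 bases by the lengths implied by the FPKM values, and these levels rested on 27 to 36 fragments at 10 µM and 10 to 15 at 200 µM.

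Potri.001G124200 followed, on many more fragments. It measured 4.3 and 6.12 FPKM at 2 h and 3.93 and 4.31 FPKM at 4 h at 10 µM. At 200 µM it measured 2.1 and 1.48 FPKM at 2 h and 2.21 and 1.97 FPKM at 4 h. All 4 libraries at 10 µM were above all 4 at 200 µM, with 219 to 331 fragments against 84 to 120. The difference was 0.94 ± 0.15 (1.92-fold), and the adjusted limma p was 1.

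Among genes lower at 10 µM, Potri.010G236890 had the smallest p. It measured 0.71 and 0.675 FPKM at 2 h and 1.66 and 1.88 FPKM at 4 h at 10 µM, against 1.73 and 1.63 FPKM at 2 h and 3.51 and 2.73 FPKM at 4 h at 200 µM. The levels overlapped when times were mixed, since the libraries of 10 µM at 4 h reached those of 200 µM at 2 h, but not within a time. Its difference was -0.62 ± 0.11 (0.653-fold), and at 10 µM and 2 h it rested on 13 and 14 fragments. Potri.001G328100 measured 12.3, 12.1, 12.4 and 15.3 FPKM at 10 µM and 17.9, 19.6, 17.6 and 19.6 FPKM at 200 µM, in the order 2 h replicates 1 and 2, then 4 h replicates 1 and 2. The levels did not overlap, and the difference was -0.49 ± 0.09 (0.711-fold). For both genes the adjusted limma p was 1.

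**Figure D3:**
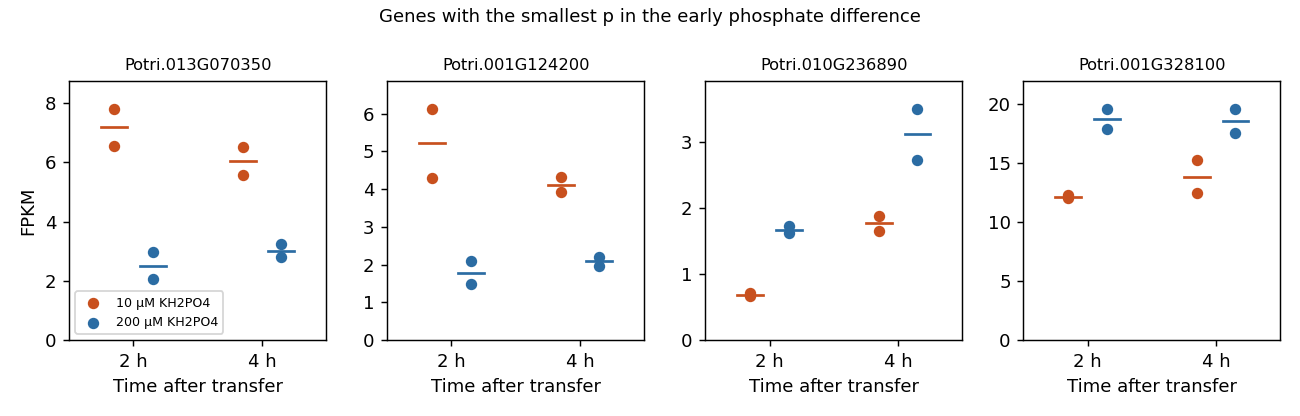
FPKM of the 2 genes with the smallest p in each direction over 2 h and 4 h, 4 genes with 1 panel each, with a point for each library and a bar for the mean of the 2 libraries. In each panel both libraries at 10 µM lie on one side of both at 200 µM at each time, for example 6.56 and 7.8 against 2.97 and 2.06 FPKM for Potri.013G070350 at 2 h. These genes were chosen for this difference.

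At 2 h alone the smallest p was that of Potri.016G102100, which was lower at 10 µM. It measured 5.22 and 6.97 FPKM at 10 µM and 26.6 and 21.7 FPKM at 200 µM. At 4 h the same gene stood at 5.13 and 4.85 FPKM against 5.36 and 4.7 FPKM, so the levels overlapped there. Its difference was -1.83 ± 0.17 at 2 h and -0.01 at 4 h. The adjusted limma p at 2 h was 0.091 and missed the threshold, whereas voom on fragments gave -1.99 with an adjusted p of 0.0412, the single gene that voom called at 2 h. Neither the fit to all 20 libraries nor the replicate block called Potri.016G102100 at 2 h. At later times its libraries were spread widely, with 16.1 ± 14 FPKM at 200 µM and 24 h (SD, n = 2).

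The other named genes at 2 h had larger p-values. Potri.017G074600 measured 3.23 and 4.26 FPKM at 10 µM against 10.2 and 8.56 FPKM at 200 µM, a difference of -1.13 ± 0.16, and at 4 h its difference was -0.24. Potri.005G107300 measured 6.26 and 7.92 FPKM at 10 µM against 2.15 and 2.57 FPKM at 200 µM, a difference of 1.26 ± 0.18, and at 4 h its difference was 0.51. Both of its libraries at 10 µM were above both at 200 µM at either time. The same held at 8, 12 and 24 h, with differences of 0.69, 0.63 and 1.31, so this difference was not limited to the early times. Over 12 h and 24 h together it was 0.97 ± 0.17 (adjusted limma p 0.157). No other gene named at 2 h kept its side at every time. Potri.003G089201 held 7 and 5 fragments at 10 µM and none in either library at 200 µM, a level at least 4.09-fold higher at 10 µM when 3 fragments over the 2 libraries are taken as the floor. At 4 h it held 1 fragment in 1 library at 10 µM and none in the other 3. Over all 20 libraries it reached the 1 FPKM needed for testing only at 10 µM. It was thus tested only through the level where it was high, so its difference and p are no independent support. The adjusted limma p of these 3 genes at 2 h was 0.578.

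Over all genes at 2 h, limma without a replicate block called 0 of 24934 (0%), and 436 (1.75%) had an unadjusted p under 0.05, with 189 higher and 247 lower at 10 µM. Voom called 1 and had 288 at an unadjusted p under 0.05. The median half-width of the 95% interval was 0.39, wider than for both times together. The limma count at an unadjusted p under 0.05 was higher without any 1 library of that time, at 658 and 700 without replicates 1 and 2 at 10 µM, and at 964 and 1241 without those at 200 µM. Without replicate 1 at 200 µM and 2 h, limma called 1 gene at 2 h. That gene was Potri.003G066800 (-3.31, adjusted p 0.0275), it was picked after its values were seen, and replicate 2 at 200 µM was then alone in its group and was assumed to vary like the others.

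At 4 h alone the smallest p belonged to Potri.007G062562, with 27.7 and 23.4 FPKM at 10 µM and 14 and 13.4 FPKM at 200 µM. The difference was 0.85 ± 0.13, and at 2 h it was 0.17. Potri.013G082850 measured 6.71 and 9.73 FPKM at 10 µM against 3.26 and 2.69 FPKM at 200 µM, a difference of 1.20 ± 0.19, on 8 and 9 fragments at 200 µM. At 2 h its levels overlapped, at 7.82 and 7.65 against 8.55 and 6.59 FPKM.

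Among genes lower at 10 µM at 4 h, Potri.011G110300 measured 3.27 and 2.96 FPKM at 10 µM against 9.04 and 6.36 FPKM at 200 µM, a difference of -1.06 ± 0.18. At 2 h all 4 of its libraries lay between 3.12 and 3.56 FPKM. Potri.005G129100 measured 2.84 and 2.79 FPKM against 7.83 and 7.48 FPKM, a difference of -1.18 ± 0.20, and was lower at 10 µM at 2 h too, by -0.49. The adjusted limma p of all 4 genes at 4 h was 1. In total limma without a replicate block called 0 of 24934 genes (0%) at 4 h, and 825 (3.31%) had an unadjusted p under 0.05, 353 higher and 472 lower at 10 µM. Voom called 0 and had 701. When 1 library was left out, the count at an unadjusted limma p under 0.05 moved up or down, depending on the library. These counts use the libraries at 2 h only for the shared spread.

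The change of the phosphate difference from 2 h to 4 h was tested directly. Potri.002G083800 had the largest change among the named genes. At 2 h it measured 1.84 and 3.02 FPKM at 10 µM against 6.87 and 8.17 FPKM at 200 µM. At 4 h it measured 6.53 and 10.2 FPKM at 10 µM against 2.2 and 3.13 FPKM at 200 µM. Both libraries at 10 µM lay below both at 200 µM at 2 h and above both at 4 h, and the difference moved from -1.33 to 1.33. That change was 2.66 ± 0.35, with an adjusted limma p of 0.765 in the fit without a replicate block. With the block, which was not taken as a pairing, the adjusted limma p of the change was 0.0196. At 12 h the 2 libraries of Potri.002G083800 at 10 µM averaged 7.83 ± 8.3 FPKM (SD, n = 2), so its level also varied widely within a group.

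For Potri.016G102100 the change of the difference was 1.82 ± 0.24, with an adjusted limma p of 0.765 in the fit without a replicate block. In the other direction Potri.017G143566 went from 4.43 and 5.02 against 3.51 and 2.73 FPKM at 2 h to 2.32 and 1.82 against 3.8 and 3.75 FPKM at 4 h (10 against 200 µM), a change of -1.12 ± 0.23. Potri.003G089201, the gene with no fragments at 200 µM at these times, changed by -1.40 ± 0.31. That value was set by the added 1, and the gene was tested only through its level at 10 µM. Both had an adjusted p of 1. Over all genes 0 of 24934 (0%) were called by limma and 0 by voom, and 458 (1.84%) and 335 had an unadjusted p under 0.05. Leaving out libraries of 2 h moved the limma count to 692 (10 µM, replicate 2), 859 (200 µM, replicate 1) and 994 (200 µM, replicate 2), with 0 calls in each.

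Genes ranked at one time had small median differences at the other. The differences at 2 h and at 4 h come from separate libraries, so one can be read against the other. The p that ranks the genes, however, uses a spread shared by both times. Of the 436 genes with an unadjusted p under 0.05 at 2 h, 270 (61.9%) had the same sign at 4 h, against 52.4% of all tested genes, and their median difference at 4 h in the direction seen at 2 h was 0.08. Of the 825 genes ranked so at 4 h, 499 (60.5%) had the same sign at 2 h, with a median of 0.05. Across 24934 genes the differences at the 2 times correlated with r = 0.08. This is a description, since genes are not independent replicates and share libraries, depth and composition.

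**Figure D4:**
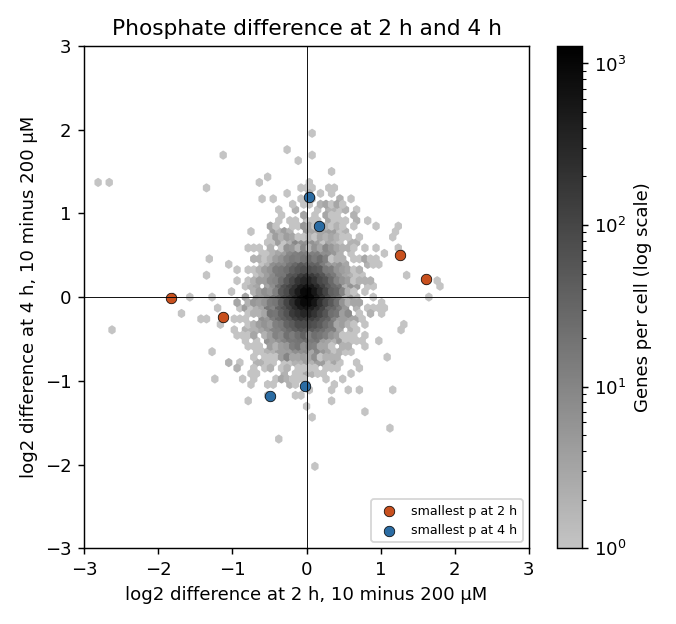
log2 difference (10 minus 200 µM) of every tested gene at 2 h (horizontal axis) and 4 h (vertical axis), with darker cells for more genes on a log scale. The cloud is centred near 0 on both axes, with r = 0.08. The named genes of 2 h (orange) lie far out on the horizontal axis, for example -1.83 at 2 h against -0.01 at 4 h for Potri.016G102100, and those of 4 h (blue) far out on the vertical axis. They were chosen for those values.

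The 4 genes named for both early times were followed in the 12 libraries taken at 8, 12 and 24 h, which were not used to rank them. Potri.001G124200 stayed higher at 10 µM, with both libraries above both at 200 µM at each of these times. It measured 3.32 ± 0.42 against 1.86 ± 0.47 FPKM at 8 h, 2.67 ± 0.18 against 1.7 ± 0.18 FPKM at 12 h and 5.06 ± 0.57 against 1.76 ± 0.31 FPKM at 24 h (SD, n = 2 each, 10 against 200 µM). Its mean difference over the 3 later times was 0.73, with a two-sided exact permutation p of 0.00926 over relabellings within each time, the smallest these 12 libraries allow. Potri.010G236890 was lower at 10 µM at each later time, both libraries below both, with differences of -0.43, -0.67 and -0.22, a mean of -0.44 and the same exact p. For Potri.010G236890 the difference over all 5 times was known from earlier results of these data, so its later values are no independent support. All 4 genes were tested in this way after their values had been seen, and the p-values are not adjusted.

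The other 2 did not hold their direction. Potri.013G070350, first in rank over 2 h and 4 h, was higher at 10 µM at 8 h (0.47) but lower at 12 h (-0.46) and 24 h (-0.47), a mean of -0.16 (exact permutation p = 0.5). At 12 h both of its libraries at 10 µM lay below both at 200 µM. Potri.001G328100 was lower at 10 µM at 8 h (-0.36) and 12 h (-0.21) and higher at 24 h (0.12), a mean of -0.15 (exact permutation p = 0.139).

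**Figure D5:**
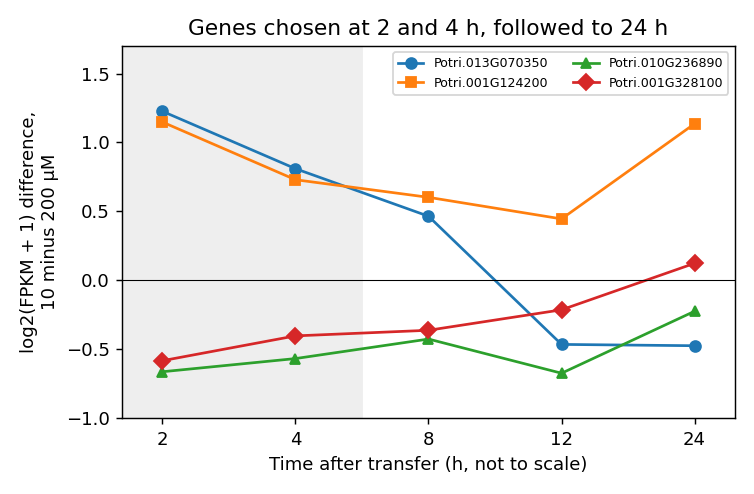
Difference in log2(FPKM + 1), 10 minus 200 µM, at each of the 5 times for the 4 genes chosen at 2 h and 4 h (shaded). Potri.001G124200 stays above 0 and Potri.010G236890 below 0 throughout, whereas Potri.013G070350 crosses from 0.47 at 8 h to -0.46 at 12 h and Potri.001G328100 reaches 0.12 at 24 h.

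Larger sets of genes ranked at 2 h and 4 h were also read at the later times. Of the 100 genes with the smallest p over 2 h and 4 h, 68 had the same sign at 8 h, 62 at 12 h and 64 at 24 h. Over all tested genes these shares were 53.0%, 54.1% and 50.6%. Of the 811 genes with an unadjusted p under 0.05, 60.8%, 61.3% and 56.2% kept their sign. The median difference of the 100 genes in their early direction was 0.16, 0.11 and 0.14 at the 3 times.

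The late pair of times, 12 h and 24 h, held more genes at a nominal p. The same fit on those 8 libraries called 0 of 24934 genes (0%), with a smallest adjusted limma p of 0.157, and 2759 (11.1%) had an unadjusted p under 0.05, against 3.25% at 2 h and 4 h. How the 2 shares differ was not tested, and the spread between the replicates differs between the pairs of times: the median half-width of the interval was 0.22 late and 0.26 early. The early minus the late difference, tested gene by gene over all 20 libraries, gave 0 of 24934 calls (0%) in limma and 868 genes (3.48%) with an unadjusted p under 0.05. The smallest adjusted p was 0.50, for Potri.013G070350 (1.49 ± 0.24). Some libraries decided these counts. Leaving out 1 library of 24 h gave the late difference 2 calls (10 µM, replicate 1), 1 call (10 µM, replicate 2) or 19 calls (200 µM, replicate 1). Early minus late had 2 calls when replicate 2 of the 10 µM group of 24 h was left out. Its count at an unadjusted p under 0.05 moved to 1304 or 1581 when 1 library of 2 h was left out (10 µM, replicate 2, or 200 µM, replicate 1).

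The late ranking was also read at each early time. Of the 100 genes with the smallest p at 12 h and 24 h, 76 had the same sign at 4 h and 49 at 2 h, against 54.6% and 48.9% of all tested genes. Of the 2759 genes with an unadjusted p under 0.05 there, 63.5% had the same sign at 4 h and 49.9% at 2 h. Their median difference at 4 h in the late direction was 0.05. These shares come from separate libraries, and how they differ between 2 h and 4 h was not tested.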

How the data were processed

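Total RNA of basal stem ends was sequenced, and the 8 libraries at 2 h and 4 h were compared, with the other 12 for reference. The authors deposited FPKM values for 34699 genes. HISAT2 2.1.0 and Bowtie2 2.2.3 are listed in the submitters' processing notes, without roles. Genome build, annotation, FPKM program and counting of shared reads: not given in the sources used here. Levels of near-identical genes are therefore uncertain. The table held 0 columns without a sample.

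Genes with at least 1 FPKM in at least 2 of the 20 libraries (24934) were tested on log2(FPKM + 1), without further scaling, with limma 3.58.1 in R 4.3.3 (mean trend, two-sided). P-values were adjusted by Benjamini and Hochberg over all tested genes, with a threshold of 0.05. The early and the late difference had time as a block. Differences at 2 h and 4 h and their change came from 1 mean per level and time. Early minus late was fitted to all 20 libraries. Steps between low FPKM values gave whole fragments, to within 0.06 of a fragment, for all 24934 genes. The fits were tested on simulated data with 200 changed genes. Of 1.5-fold changes, 37.5% were recovered over both early times and 0% at 2 h alone. Of 2-fold changes, 82.5% and 48% were recovered, and 7.3% and 3.03% of the calls there were false. A count of 0 calls at 2 h therefore leaves room for changes of this size. The shares hold for the simulated spread, which may differ from that of these libraries.

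Named genes were the 2 with the smallest p in each direction of a comparison, the number kept for genes without a description. The 15 gene lists meant for gene descriptions could not be matched and were not used. The libraries, genes and tests were chosen with earlier results of these data known. Alternatives were another pseudocount, other filters, quantile normalization, a fit to all 20 libraries, voom on fragments, a replicate block, and each library left out.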

Additional observations from a re-analysis of the deposited data

Results flagged for a closer look

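Potri.001G328100 had 1 library that stood apart from the other 3 at 10 µM KH2PO4. Replicate 2 at 4 h measured 15.3 FPKM, against 12.1 to 12.4 FPKM in the others, and the gap made up more of the range than the 95% limit for 4 values allows. Such gaps arise by chance in about 1 of 20 groups, and 8 groups of 4 libraries were looked at. The value still lay below all 4 libraries at 200 µM (17.6 to 19.6 FPKM).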

How the results depend on the processing

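The count of 0 genes for 2 h and 4 h together held under the other pseudocount, both filters, quantile normalization, the fit to all 20 libraries, voom, 1 mean per level and time, and without any 1 library. Among these the smallest adjusted p lay at 0.0653 or above. The replicate block gave 1 gene. Deviations from the group means correlated between same-numbered libraries with r = 0.50 at 2 h and 0.07 at 4 h. The numbers thus went together at 2 h but hardly at 4 h, the labels give them no meaning, and they were not taken as a pairing. With the replicate block, limma called 1 gene over both times (Potri.013G162500, 0.72, adjusted p 0.0316), 1 at 2 h (Potri.014G185804, -2.83), 13 at 4 h (11 higher and 2 lower at 10 µM), and 2 for the change from 2 h to 4 h (Potri.014G185804, 4.18, and Potri.002G083800, 2.66), while late and early minus late stayed at 0. An unadjusted limma p under 0.05 was then reached by 1449 genes (5.81%) over both times, 864 at 2 h, 1689 at 4 h and 1089 for the change. For the late difference this count was 2688 (10.8%). Filters moved this count as well: with no filter it was 702 at 2 h and 721 for the change, and with a mean of at least 5 FPKM it was 491 over both times, 217 at 2 h, 494 at 4 h and 217 for the change, in each case with more or fewer genes tested. The genes given here for the replicate block and for left-out libraries were named after their values were seen. With voom 1 gene was called at 2 h (Potri.016G102100).

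Leaving out 1 library in turn gave 0 to 0 genes for both early times together, 0 to 1 at 2 h, 0 to 0 at 4 h and for the change, 0 to 19 for the late difference and 0 to 2 for early minus late. The 19 late calls needed replicate 1 of 200 µM, 24 h, to be left out. Without replicate 1 of 10 µM, 24 h, the late calls were Potri.016G096300 and Potri.001G334800, and without replicate 2 the call was Potri.017G047000. Early minus late called Potri.013G070350 (1.69) and Potri.002G050300 (1.06) once replicate 2 of 10 µM, 24 h, was left out. The causes were not tested. Of the top 100 genes, 56 to 81 kept their sign at 8 h, 50 to 65 at 12 h and 54 to 77 at 24 h without 1 library. The named genes' differences in the comparisons they were named for kept their sign in every alternative run. This was largely fixed by their choice and is no independent support. They were picked for a small p, and most had fully separated levels, so leaving out 1 library could hardly change the sign. The replicate block and the fit to all 20 libraries leave such estimates unchanged. The depth leaves 1 fragment of a 1 kb gene worth 0.0642 to 0.0695 FPKM, so low genes rest on few fragments.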

Other observations

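Some genes differed between the replicates at both phosphate levels, and those that differed at 1 level only were not counted. At 2 h, in 156 of 24934 genes replicate 1 exceeded replicate 2 by more than 1 on the log2 scale at 10 µM and at 200 µM alike, and in 11 genes replicate 2 exceeded replicate 1 at both. In 12 genes the levels went opposite ways. At 4 h these numbers were 9, 7 and 10. The phosphate difference, a difference between means of 2 libraries and so another quantity, was beyond 1 in 21 genes upward and 22 downward at 2 h, and in 55 and 25 at 4 h.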
